A study of Homo sapiens with 7 samples.

Results

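The genes described here are 10 genes of inflammatory signaling, of 19978 in the deposited table, chosen by name: the CXC chemokines CXCL8, CXCL1, CXCL2 and CXCL3, the IL6 family cytokines IL6, IL11 and LIF, the NF-kB feedback inhibitors NFKBIA and TNFAIP3, and the NF-kB subunit gene RELB. They were followed in HEK-293 cells, an established line from human embryonic kidney, after 48 h of culture. Control cells (2 samples) stayed in medium of pH 7.4 to which DMSO, the solvent of the inhibitor, was added. In acidosis (3 samples) the medium had been brought to pH 6.6 with acid and held DMSO as well. In the SRPIN340 group (2 samples) the medium of pH 7.4 held 10 µM of this inhibitor of SR protein kinases, the enzymes that phosphorylate SR-rich splicing factors, again with DMSO. The methods describe the samples as biological repeats of this single cell line, each sequenced in 3 replicates. How those replicates relate to the single deposited column of each sample is not stated. The study set SRPIN340 beside acidosis to compare low pH with loss of SR protein phosphorylation. Poly(A)-selected RNA was sequenced, so the values are mRNA levels and say nothing of secreted protein. In bulk RNA a change per cell cannot be told apart from a change in the share of cells that express a gene.

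NF-kB is a family of dimeric transcription factors (RELA, REL, RELB, NFKB1, NFKB2) that IkB proteins hold inactive in the cytoplasm. Stimuli such as TNF, IL1 or microbial products activate the IKK kinases, the IkB protein is degraded, and the freed dimers enter the nucleus and switch on chemokine and cytokine genes. Among the targets are their own inhibitors: NFKBIA encodes IkB alpha, and TNFAIP3 encodes A20, an enzyme that edits ubiquitin chains upstream of IKK. CXCL8 (interleukin 8) and the related CXCL1, CXCL2 and CXCL3 attract neutrophils through the receptors CXCR1 and CXCR2. IL6, IL11 and LIF signal through receptors that share the subunit encoded by IL6ST. Kidney epithelial cells are known to make CXCL8 and IL6 when injured or inflamed.

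The 4 chemokine genes lie together in GRCh38, from CXCL8 at chr4:73740519-73743716 through CXCL1 at chr4:73869393-73871308 and CXCL3 at chr4:74036589-74038807 to CXCL2 at chr4:74097040-74099196. This stretch of 359 kb holds 9 chemokine genes in GENCODE release 44. CXCL8 and CXCL1 are on the plus strand and CXCL2 and CXCL3 on the minus strand. A RefSeq table of promoters (GRCh38.p14, 250 bases before to 50 after each annotated start) held an entry for 8 of the 10 genes, all but LIF and RELB. The 150 bases just before the start are given below for 7 of them, the chemokine genes, IL6, NFKBIA and TNFAIP3. IL11 is not printed, and it held neither an NF-kB match nor the stretch shared by the chemokine promoters. Capitals mark matches, on either strand, to the 10-base NF-kB consensus, to the AP-1 site TGANTCA, and to the longest stretch that the 4 chemokine promoters share.
CXCL8 (chr4:73740419-73740568, plus strand): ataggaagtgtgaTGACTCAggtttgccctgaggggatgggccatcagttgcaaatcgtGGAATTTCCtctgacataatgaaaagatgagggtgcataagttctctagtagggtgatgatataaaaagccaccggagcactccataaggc
CXCL1 (chr4:73869243-73869392, plus strand): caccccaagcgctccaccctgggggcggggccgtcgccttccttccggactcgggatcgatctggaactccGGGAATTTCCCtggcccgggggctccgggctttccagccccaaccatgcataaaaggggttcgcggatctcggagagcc
CXCL2 (chr4:74099196-74099345, minus strand): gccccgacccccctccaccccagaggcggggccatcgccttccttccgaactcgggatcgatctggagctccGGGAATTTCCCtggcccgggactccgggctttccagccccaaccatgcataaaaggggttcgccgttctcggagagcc
CXCL3 (chr4:74038690-74038839, minus strand): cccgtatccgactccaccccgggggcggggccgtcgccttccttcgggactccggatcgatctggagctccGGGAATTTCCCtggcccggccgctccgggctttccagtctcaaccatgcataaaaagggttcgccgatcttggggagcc
IL6 (chr7:22727050-22727199, plus strand): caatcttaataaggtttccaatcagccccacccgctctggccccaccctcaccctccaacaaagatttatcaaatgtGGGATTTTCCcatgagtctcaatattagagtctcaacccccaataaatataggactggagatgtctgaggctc
NFKBIA (chr14:35404750-35404899, minus strand): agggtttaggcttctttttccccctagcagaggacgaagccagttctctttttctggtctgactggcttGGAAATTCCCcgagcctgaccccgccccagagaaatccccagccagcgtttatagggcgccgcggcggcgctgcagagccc
TNFAIP3 (chr6:137867109-137867258, plus strand): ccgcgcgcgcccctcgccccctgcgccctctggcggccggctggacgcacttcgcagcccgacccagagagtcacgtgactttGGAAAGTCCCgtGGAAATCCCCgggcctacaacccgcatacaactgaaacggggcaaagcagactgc
The consensus of NF-kB was matched in CXCL1, CXCL2, CXCL3, IL6, NFKBIA and TNFAIP3, 6 of the 8 promoters, against 11.3% of the 35116 promoters in the table. TNFAIP3 held 2 matches, at 67 to 58 and at 55 to 46 bases before its start. CXCL8 did not match these letters. It held the stretch GGAATTTCC at 91 to 83 bases before its start, and this run of 9 bases is the longest that CXCL8 shares with CXCL1, CXCL2 and CXCL3. The stretch was picked after the sequences had been seen. It lies inside the consensus match in CXCL1, CXCL2, CXCL3 and NFKBIA, and occurred in 0.461% of all promoters. CXCL1, CXCL2 and CXCL3 alone share 23 bases around it. The AP-1 site was found in CXCL8, at 137 to 131 bases before the start, and in IL11, at 96 to 90, against 7.71% of all promoters. The palindromic cAMP response element TGACGTCA was in none of the 8, against 1.85% of all promoters. A match is a description of the letters and does not show that a factor bound there.

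**Figure D1:**
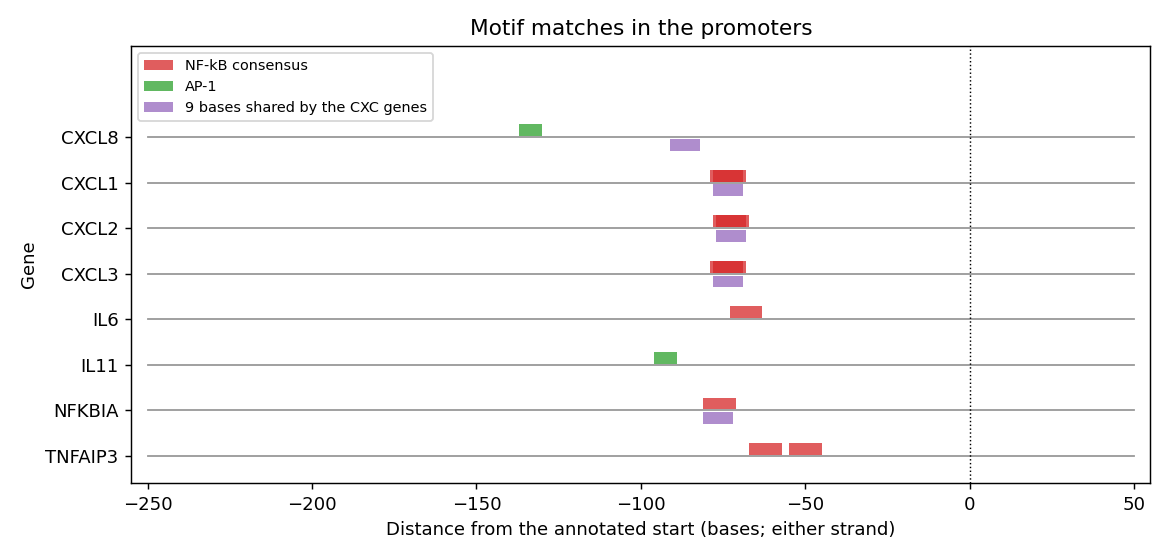
Motif matches (boxes) by their distance in bases from the annotated start (dotted line) in the promoters of 8 genes, with matches on either strand drawn. In CXCL1, CXCL2, CXCL3 and NFKBIA the NF-kB match and the shared stretch of 9 bases overlap within 81 bases of the start, and in CXCL8 the shared stretch stands without a consensus match.

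The mRNAs of many of these genes are also known for AU-rich elements, repeats of ATTTA in the 3′ untranslated region (3′UTR) that mark an mRNA for fast decay. In the canonical transcripts of GENCODE release 44, 9 of the 10 genes held at least 2 copies of TATTTAT, against 15.5% of 14801 tested genes with a 3′UTR, and 7 of 10 held at least 3, against 7.23%. RELB held 0. CXCL2 had the most copies, 8, in a 3′UTR of 716 bases, followed by IL11 with 7 and LIF with 5. Per kb of 3′UTR, ATTTA occurred 14.1 times in IL6, 14 times in CXCL2, 10.4 times in CXCL3, 7.77 times in CXCL1, 7.19 times in CXCL8, 6 times in NFKBIA, 5.54 times in IL11, 2.51 times in TNFAIP3, 2.19 times in LIF and not at all in RELB, against a median of 1.68 over the tested genes. The densest windows of 30 bases in 3 chemokine mRNAs are given below, read from the GRCh38 genome on the strand of the gene, with ATTTA in capitals.
CXCL8 (chr4:73743111-73743140, plus strand): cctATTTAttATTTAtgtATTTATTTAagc
CXCL1 (chr4:73870673-73870702, plus strand): aagtcttctATTTATTTATTTAttcattag
CXCL2 (chr4:74097586-74097615, minus strand): cttctATTTATTTATTTATTTATTTAtttg
These windows hold 4, 3 and 5 overlapping or neighboring copies of ATTTA.

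The libraries held between 13615944 and 24110439 rounded estimated counts, fewest in acidosis replicate 2. The 100 most abundant genes took 24.1% to 24.8% of the counts in acidosis and 15.2% to 15.4% in the other samples, and the TMM factors, which correct for such differences in make-up, were 0.782 to 0.8 in acidosis and 1.17 to 1.21 elsewhere. Values below are CPM, counts scaled by the library total after the TMM correction. The 12 genes chosen as markers of HEK-293 summed to 1706 to 1772 CPM in control, 1700 to 1761 CPM with SRPIN340 and 3842 to 3855 CPM in acidosis. By the limits given below, 2 of the 12 were called higher in acidosis (16.7%) and 1 lower (8.33%), against 14.4% and 19.1% of all tested genes. Their median log2 fold change was 0.17. Among 10 leukocyte markers, CD3E, MS4A1 and FCGR3A were at 0 in all 7 libraries. The 10 together summed to 9.27 to 9.73 CPM in control, 9.95 to 12 CPM with SRPIN340 and 17.2 to 20.1 CPM in acidosis. Only 5 of the 10 were tested, and 4 were called higher in acidosis, against 14.4% of all tested genes. The 5 endothelial markers summed to 5.58 to 6.11 CPM, 4.57 to 6.98 CPM and 1.03 to 2.67 CPM. Only 3 of the 5 were tested, with 1 called higher in acidosis and 1 lower, against 14.4% and 19.1% of all tested genes. The part of these shifts in the results below was not tested.

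In acidosis, 9 of the 10 genes rose and none fell. A call needed an adjusted p under 0.05 (edgeR's quasi-likelihood test, Benjamini-Hochberg) together with an absolute log2 fold change over 1. Of 14863 genes tested, 14.4% were called higher and 19.1% lower in acidosis against control. IL6 had too few counts to be tested. CXCL2 entered the test only through its acidosis libraries, so its call adds nothing to the count, and without it 8 genes are left. The 9 tested genes had a median log2 fold change of 3.93, against -0.0518 over all tested genes. When the TMM factors were left out, the median of all genes moved to -0.626, and each of the 9 genes was still called higher.

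Of the neutrophil attractants and all 9 tested genes, CXCL8 had the largest estimated change. It was nearly silent in control, at 0.612 and 0.632 CPM, and stood at 231, 220 and 254 CPM in acidosis. The groups lay far apart, and the acidosis libraries differed among themselves by a coefficient of variation of only 7.45%. The means were 0.622 ± 0.0138 CPM (SD, n = 2) and 235 ± 17.5 CPM (SD, n = 3), a ratio of 377. The control values rest on 17.5 and 18.4 estimated counts. The log2 fold change was 8.54 (standard error 0.153, edgeR adjusted p = 4.31e-10), the rank of 5 among 14863 genes ordered from the highest.

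CXCL1, CXCL2 and CXCL3 encode the closely related GRO chemokines. CXCL1 was at 0.468 and 0.562 CPM in control and at 15.3, 18.5 and 19.7 CPM in acidosis. CXCL2 was at the counting floor of 3 counts per library in control, with 2.9 estimated counts in each, and at 20.2, 13.6 and 16.5 CPM in acidosis. CXCL3 was at 0.36 and 0.913 CPM in control and at 8.79, 7.25 and 9.8 CPM in acidosis. For CXCL1 and CXCL3 each acidosis library lay above each control library, as it did for 37.0% of all tested genes. CXCL2 entered the test only through its acidosis libraries, so its separation from control adds nothing to this. CXCL1 rose 34.6-fold, with a log2 fold change of 5.09 (standard error 0.284, edgeR adjusted p = 3.05e-07). For CXCL2 the ratio of summed counts, 680 against 6, was 162 after scaling, with a 95% interval of 74 to 443 that covers counting error only. That interval includes the CXCL8 ratio of 377, so the order of CXCL8 and CXCL2 by size of change is not settled. CXCL3 rose 13.5-fold, with a log2 fold change of 3.74 (standard error 0.408, edgeR adjusted p = 2.58e-05), which was 4.54 without control replicate 2, the higher of its control libraries.

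The GRO genes are near copies of each other, which bears on how reads are shared out among them. Over the aligned bases of their canonical transcripts CXCL1 and CXCL2 were 90.9% identical, CXCL2 and CXCL3 83.6%, and CXCL1 and CXCL3 82.2%, whereas CXCL8 was 63.6% to 65.3% identical to each. Of the 31-base stretches in the transcript, 21.7% of those in CXCL2, 15% in CXCL1 and 9.57% in CXCL3 also occur in another gene, and none of those in CXCL8 do. The split among CXCL1, CXCL2 and CXCL3 is therefore uncertain. Counted as a single gene, a step added after the shared stretches had been seen, they had a log2 fold change of 5.09 (edgeR adjusted p = 8.09e-08).

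Among the IL6 family cytokines the rises were smaller. LIF, which keeps mouse embryonic stem cells undifferentiated and is induced in injury, was at 2.09 and 1.83 CPM in control and at 9.5, 9.27 and 10.5 CPM in acidosis. It rose 4.98-fold, with a log2 fold change of 2.31 (standard error 0.232, edgeR adjusted p = 1.43e-05). IL11, known for its part in fibrosis and the making of platelets, was at 0.973 and 0.772 CPM in control and at 2.38, 3.12 and 2.75 CPM in acidosis. The acidosis libraries lay above control here too, as for 37.0% of all tested genes. The log2 fold change was 1.64 (standard error 0.373, edgeR adjusted p = 0.00316). It was the smallest rise of the 9 genes, at rank 850 of all genes. IL6 itself, the best known cytokine of the family, was not detectable at this depth in any group. Its estimated counts were 1.0 and 2.1 in control, 0 in both SRPIN340 libraries, and 0, 1.0 and 0 in acidosis, all at or under the floor of 3 counts, so no fold is given. Some of these loci have partners on the other strand: IL6 overlaps IL6-AS1 and STEAP1B, LIF overlaps LIF-AS1 and LIF-AS2, and TNFAIP3 overlaps WAKMAR2. Whether the counting used strand is not stated, so reads from such partners cannot be told apart.

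The 2 feedback inhibitors and RELB rose together and with little spread. NFKBIA, the IkB protein that is itself induced by NF-kB, was at 17.9 and 18.5 CPM in control and at 147, 147 and 158 CPM in acidosis. TNFAIP3 was at 9.69 and 9.16 CPM in control and at 141, 156 and 133 CPM in acidosis. RELB, whose product pairs with the processed NFKB2 protein in the noncanonical pathway, was at 2.38 and 2.28 CPM in control and at 41.6, 39.4 and 37.3 CPM in acidosis. In all 3 each acidosis library lay above each control library, as for 37.0% of all tested genes. The coefficients of variation in acidosis were 4.43%, 7.98% and 5.39%. NFKBIA rose 8.27-fold (log2 fold change 3.05, standard error 0.118, edgeR adjusted p = 3.62e-08). TNFAIP3 rose 15.2-fold (log2 fold change 3.93, standard error 0.139, edgeR adjusted p = 2.25e-08). RELB rose 16.9-fold (log2 fold change 4.08, standard error 0.154, edgeR adjusted p = 3.31e-08).

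**Figure D2:**
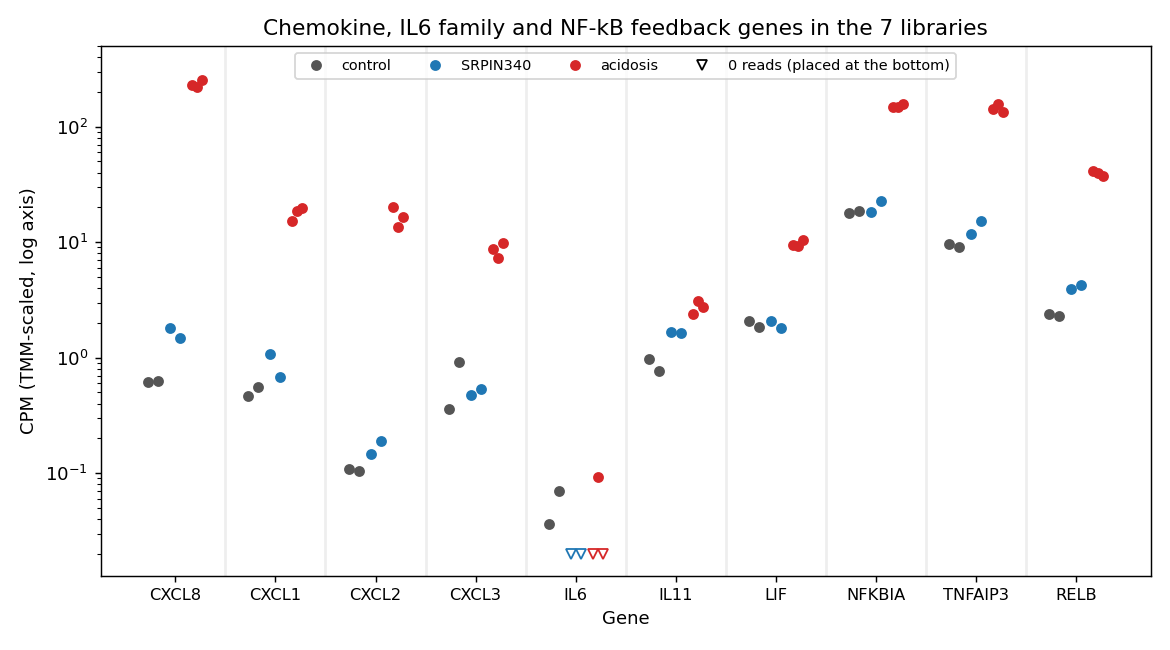
Level of each of the 10 genes in every library, in CPM on a log axis, with a point for each library and an open triangle at the bottom for a library at 0. The acidosis libraries lie above all control libraries for every gene but IL6, as they do for 37.0% of all tested genes. CXCL2 entered the test only through its acidosis libraries. The margin is widest for CXCL8, at 220 to 254 CPM against 0.612 and 0.632 CPM.

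Per kb of the canonical transcript, which allows levels to be compared between genes, the order of the genes changed. In control NFKBIA led with 11.7 ± 0.303 CPM per kb (SD, n = 2), ahead of TNFAIP3 with 2.02 and RELB with 1.03 CPM per kb. The 4 chemokines, LIF and IL11 lay between 0.0957 and 0.592 CPM per kb, and CXCL8, with 0.379, was 7th of the 10. In acidosis CXCL8 was first with 143 ± 10.6 CPM per kb (SD, n = 3), followed by NFKBIA with 96.6 ± 4.28 and TNFAIP3 with 30.7 ± 2.45 CPM per kb. These did not overlap. RELB, CXCL1 and CXCL2, with 17.5, 15.2 and 15 CPM per kb, overlapped with their neighbors in the order. CXCL3 followed with 8.01, LIF with 2.52 and IL11 with 1.16 CPM per kb. With the length of all merged exons in place of the canonical transcript, the order in acidosis was the same, and in control 5 of the 10 genes kept their place.

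The make-up of the chemokine RNA shifted as well. Of the summed CPM per kb of the 4 chemokines, CXCL8 held 31% and 21.3% in the control libraries, 42.5% and 42% with SRPIN340, and 78.1%, 79.4% and 79.2% in acidosis. The sum itself was 1.2 and 1.81 CPM per kb in control, 2.59 and 2.15 with SRPIN340, and 180, 168 and 195 in acidosis. The shares in control and with SRPIN340 rest on few counts. The shares of CXCL3 went from 27.8% and 47% in control to 4.01% to 4.67% in acidosis and those of CXCL1 from 33.1% and 26.5% to 7.26% to 9.34%, while both levels rose. The shares of the single GRO genes carry the uncertainty of their split.

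**Figure D3:**
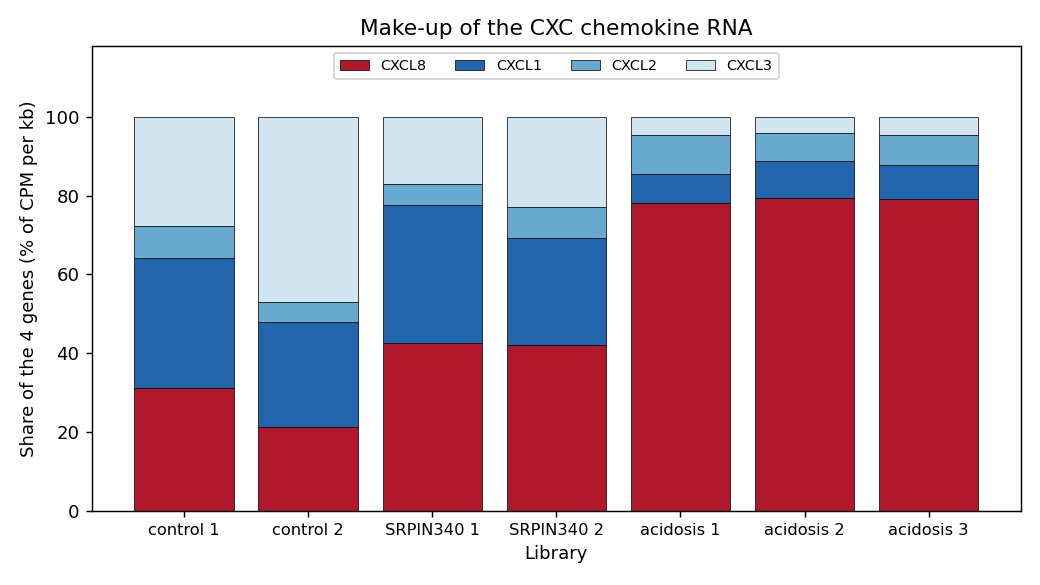
Share of CXCL8, CXCL1, CXCL2 and CXCL3 in their summed CPM per kb (vertical axis, percent) in each of the 7 libraries. CXCL8 makes up 78.1% to 79.4% in the acidosis libraries and 21.3% to 42.5% in the others.

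With SRPIN340 the tested genes moved less than in acidosis. Their median log2 fold change was 0.63, against 0.00243 over all tested genes. CXCL8 was the only one called, where 0.128% of the tested genes were called higher and 0.195% lower. Its libraries stood at 1.81 and 1.48 CPM, both above control, a ratio of 2.64 and a log2 fold change of 1.39 (standard error 0.232, edgeR adjusted p = 0.0227). The values rest on 49.1 and 38.5 estimated counts against 17.5 and 18.4. The call was lost without any single control or SRPIN340 library (edgeR adjusted p = 0.116 and 0.119 without control replicate 1 and 2, 0.187 and 0.0966 without SRPIN340 replicate 1 and 2). It was lost as well with only the groups compared in the fit (edgeR adjusted p = 0.0943) and with a replicate block (edgeR adjusted p = 0.0582), and it held with DESeq2 (adjusted p = 0.000364). RELB stood at 3.94 and 4.25 CPM with SRPIN340 and passed the adjusted p but not the fold limit, with a log2 fold change of 0.81 (standard error 0.163, edgeR adjusted p = 0.0395). RELB no longer passed with only the groups compared in the fit, with a replicate block or without any 1 of the libraries other than acidosis replicate 2 (edgeR adjusted p = 0.0561 to 0.288). In the same way 0.767% of all tested genes passed the adjusted p upward.

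None of the other 7 tested genes passed with SRPIN340, and each is given with its interval. TNFAIP3, at 11.8 and 15.2 CPM, had a log2 fold change of 0.52 (95% interval 0.20 to 0.84, edgeR adjusted p = 0.0958). NFKBIA, at 18.1 and 22.9 CPM, had 0.17 (-0.10 to 0.44, edgeR adjusted p = 0.518). For these genes the intervals leave out the rises seen in acidosis. IL11, at 1.66 and 1.63 CPM, had 0.91 (0.03 to 1.79, edgeR adjusted p = 0.267), an interval that reaches above its acidosis estimate of 1.64. LIF, at 2.06 and 1.82 CPM, had -0.0099 (-0.57 to 0.55, edgeR adjusted p = 0.992). CXCL1, at 1.07 and 0.683 CPM, had 0.76 (-0.00 to 1.53, edgeR adjusted p = 0.286). CXCL2, at 0.147 and 0.19 CPM, and CXCL3, at 0.479 and 0.531 CPM, had 0.63 (-0.72 to 1.99) and -0.33 (-1.40 to 0.73), and the second of these values was 0.48 without control replicate 2.

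Set directly against SRPIN340, acidosis was higher for 8 of the 10 genes, where 14.9% of the tested genes were called higher and 19.7% lower. CXCL2 again entered only through its acidosis libraries, which leaves 7. Both comparisons use the same acidosis libraries. The log2 fold changes were 7.15 for CXCL8, 4.33 for CXCL1, 6.59 for CXCL2, 4.08 for CXCL3, 2.32 for LIF, 2.88 for NFKBIA, 3.41 for TNFAIP3 and 3.27 for RELB. IL11 was the exception, with a log2 fold change of 0.73 (95% interval -0.06 to 1.53, edgeR adjusted p = 0.0913). It stood at 2.38, 3.12 and 2.75 CPM in acidosis and at 1.66 and 1.63 CPM with SRPIN340. IL6 was not tested.

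**Figure D4:**
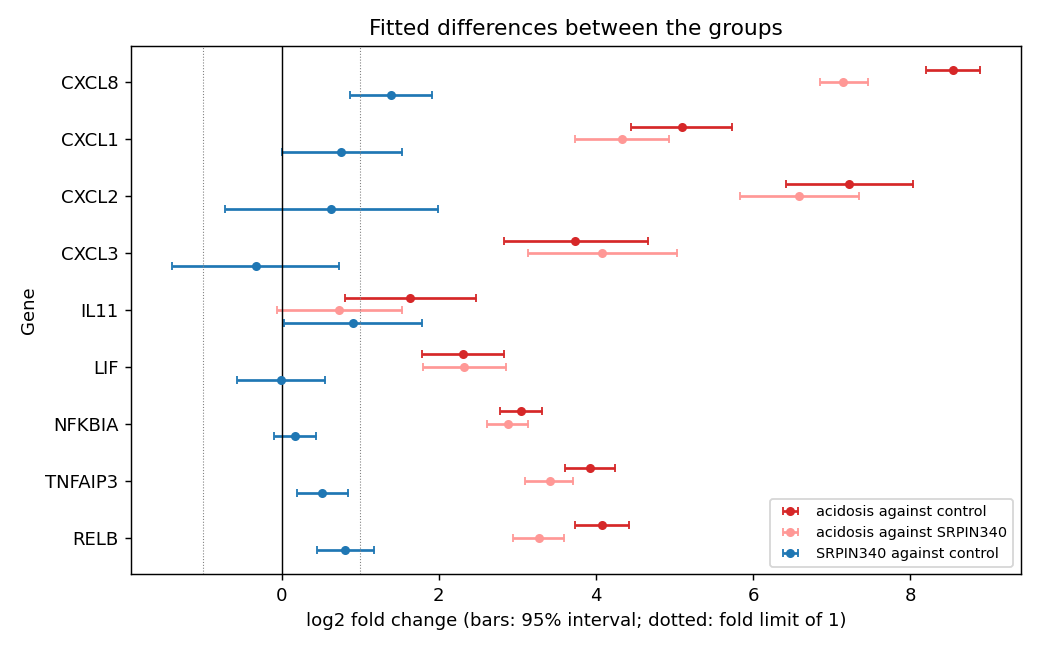
Log2 fold change (points) and 95% interval (bars) of the 9 tested genes in the 3 comparisons, with dotted lines at the fold limit of 1. Acidosis against control runs from 1.64 for IL11 to 8.54 for CXCL8, acidosis against SRPIN340 from 0.73 for IL11, whose interval reaches 0, to 7.15 for CXCL8, and the SRPIN340 values lie between -0.33 and 1.39.

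The genes around them in the same pathways were followed in 13 lists with 157 genes, of which 121 were tested. In acidosis 35 of these were called higher (28.9%) and 20 lower (16.5%), against 14.4% and 19.1% of all tested genes. Of the higher calls 4 (CCL7, CCL20, TNF and SELE) entered the test only through acidosis libraries and add nothing to the count. This split turned to 21 higher and 30 lower with libraries scaled by total count only. With SRPIN340, 1 of the 121 was called. It was PLAU, the urokinase gene, at 2.41 and 2.91 CPM in control and 6.49 and 6.04 CPM with SRPIN340 (log2 fold change 1.23, edgeR adjusted p = 0.0323), and the call was lost without any single control or SRPIN340 library and with a replicate block.

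Other chemokines changed in both directions. Of 21 genes 11 were tested, where 14.4% of all tested genes were called higher and 19.1% lower. Among the 11, 4 were called higher and 2 lower in acidosis, or 2 and 2 with scaling by total count only. CCL7 and CCL20 entered the test only through their acidosis libraries, so their calls add nothing to this count and 2 higher calls are left. CCL7, a monocyte attractant, had 0 counts in the control and SRPIN340 libraries and stood at 0.416, 0.826 and 0.602 CPM in acidosis, at least 5.24-fold higher when each control library is set at the floor of 3 counts. CCL20, the ligand of CCR6, was at 0.36 and 0.351 CPM in control and at 1.37, 1.93 and 1.12 CPM in acidosis (log2 fold change 2.02, edgeR adjusted p = 0.00565), a call lost without control replicate 2 (edgeR adjusted p = 0.0509). CX3CL1, a membrane-bound chemokine, fell from 1.66 and 1.4 CPM to 0.297, 0.459 and 0.344 CPM (log2 fold change -2.07, edgeR adjusted p = 0.00189). The receptors of CXCL8 and the GRO chemokines were nearly silent. CXCR1 was listed at 0 in 6 of the 7 libraries, CXCR2 stood between 0 and 0.18 CPM, and neither could be tested. CXCR4, the receptor of CXCL12, was the only 1 of 7 chemokine receptors tested and is named for that reason. It was at 42.4 and 45.7 CPM in control and at 31.3, 22.8 and 31.5 CPM in acidosis, with a log2 fold change of -0.62 (edgeR adjusted p = 0.00277) that stayed under the fold limit.

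Of 8 tested receptors of the IL6 family, 3 were called higher in acidosis (37.5%, against 14.4% of all tested genes) and 1 lower (12.5%, against 19.1%). With scaling by total count only these were 2 and 1. IL6R, the binding subunit for IL6, was at 16.9 and 18.2 CPM in control and at 208, 215 and 192 CPM in acidosis, a rise of 11.7-fold (log2 fold change 3.55, standard error 0.102, edgeR adjusted p = 8.31e-09). With SRPIN340 it stood at 34.7 and 30.9 CPM (log2 fold change 0.90, edgeR adjusted p = 0.00438, and 0.0622 without SRPIN340 replicate 1), just under the fold limit. IL31RA, close to the counting floor in control, rose from 0.18 and 0.0351 CPM to 1.31, 3.95 and 3.1 CPM (log2 fold change 4.61, edgeR adjusted p = 0.000481, with values of 6.05 and 3.86 without control replicate 1 and 2). With SRPIN340 the log2 fold change of IL31RA was 2.76 to 4.93 over the settings, called in 4 alternatives but not in the main fit. Acidosis against SRPIN340 gave 0.51 to 1.48 for IL31RA, called in 1 alternative but not in the main fit. IL6ST, the shared signaling subunit, rose from 125 and 120 CPM to 306, 255 and 288 CPM, with a log2 fold change of 1.21 that was 0.63 and not called with scaling by total count only. IL27RA, a receptor for interleukin 27, fell from 9.94 and 12 CPM to 4.16, 3.4 and 4.64 CPM (log2 fold change -1.43, edgeR adjusted p = 8.32e-05). IL11RA had a log2 fold change of 0.20 (edgeR adjusted p = 0.37), and LIFR one of 0.59 (edgeR adjusted p = 0.00814), under the fold limit.

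Downstream of these receptors, 3 of 8 genes of the JAK-STAT3 arm were called higher (37.5%, against 14.4% of all tested genes) and none lower. With scaling by total count only these were 1 and 1. SOCS3, the feedback inhibitor that STAT3 induces, rose from 1.44 and 2.04 CPM to 11.9, 9 and 14.5 CPM (log2 fold change 2.76, standard error 0.293, edgeR adjusted p = 2.11e-05). SOCS1 was at 0.396 and 0.351 CPM in control and 1.54, 0.826 and 1.55 CPM in acidosis (log2 fold change 1.80, edgeR adjusted p = 0.0187). That call was lost without either control library, with the replicate block and with scaling by total count only. PTPN11, the phosphatase SHP2, stood at the limit with a log2 fold change of 1.00, and its call was lost in 9 of the alternatives.

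The other NF-kB subunits went along with RELB: 3 of 4 were called higher in acidosis, under each scaling tried (75%, against 14.4% of all tested genes). NFKB2, the partner of RELB, rose from 13.1 and 10.2 CPM to 110, 71.2 and 88.6 CPM (log2 fold change 2.95, standard error 0.198, edgeR adjusted p = 9.63e-07). REL rose from 24.2 and 18.6 CPM to 122, 131 and 126 CPM, with a log2 fold change of 2.56, and RELA from 44.7 and 47.8 CPM to 160, 124 and 140 CPM, with 1.61. NFKB1 was at 26.3 and 29.3 CPM in control and 38.8, 30.1 and 34.2 CPM in acidosis, a log2 fold change of 0.31 that did not pass (edgeR adjusted p = 0.0545). With SRPIN340, REL passed the adjusted p at a log2 fold change of 0.61 (edgeR adjusted p = 0.0407, and up to 0.267 when a library was left out), under the fold limit.

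Of 7 other IkB proteins 4 were called higher (57.1%, against 14.4% of all tested genes) and none lower. With scaling by total count only these were 3 and none. NFKBIZ, a nuclear IkB protein needed for the induction of IL6 and other secondary targets, rose from 2.88 and 3.09 CPM to 40.4, 60 and 45.7 CPM (log2 fold change 4.02, standard error 0.207, edgeR adjusted p = 1.87e-07). BCL3, another nuclear member, rose from 1.48 and 2.18 CPM to 23.5, 29.8 and 21 CPM, with a log2 fold change of 3.75. NFKBIB, the IkB beta gene, rose from 34.8 and 39.7 CPM to 182, 156 and 179 CPM, with 2.21. Among 12 tested feedback enzymes and adaptors other than TNFAIP3 the calls were even, 2 higher and 2 lower. These shares of 16.7% each lie near the 14.4% and 19.1% of all tested genes. ZC3H12A, an RNase that degrades cytokine mRNAs such as that of IL6, rose from 3.42 and 3.79 CPM to 43.8, 32.2 and 34.9 CPM (log2 fold change 3.36, standard error 0.185, edgeR adjusted p = 2.79e-07). OTUD7B, a deubiquitinase, rose with a log2 fold change of 1.41 that was 0.84 and not called with scaling by total count only. PDLIM2, which promotes the breakdown of nuclear RELA, fell with -1.53 (edgeR adjusted p = 0.00172).

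Upstream of NF-kB genes changed in both directions. Among 17 IKK and upstream kinase genes 3 were called higher (17.6%) and 5 lower (29.4%), among 12 TRAF and cIAP adaptor genes 1 (8.33%) and 4 (33.3%), and among 14 tested receptors 2 (14.3%) and 4 (28.6%). Of all tested genes, 14.4% were called higher and 19.1% lower. With scaling by total count only these became 0 and 8, 0 and 7, and 1 and 5. MYD88, the adaptor of the Toll-like and IL1 receptors, fell from 22.1 and 22.3 CPM to 2.26, 3.21 and 2.67 CPM (log2 fold change -3.05, standard error 0.171, edgeR adjusted p = 3.14e-07). RIPK1, the kinase of the TNF receptor complex, fell from 51.8 and 50.2 CPM to 11.3, 12.9 and 8.77 CPM, with a log2 fold change of -2.22. IKBKE, an IKK-related kinase, fell with -2.20 and TRADD, the adaptor of TNF receptor signaling, with -1.83. IRAK3, which restrains Toll-like receptor signaling, was at 6.02 and 5.76 CPM in control and at 0.594, 3.03 and 0.344 CPM in acidosis, with acidosis replicate 2 the highest. Its log2 fold change was -2.23, and -3.58 without that library. The receptor genes TLR3 and TLR6 fell with log2 fold changes of -2.32 and -1.61. TRAF6, the ubiquitin ligase downstream of MYD88, rose from 18.9 and 21.3 CPM to 60.1, 55.8 and 50.6 CPM, a log2 fold change of 1.47 that was 0.89 and not called with scaling by total count only. TNFRSF9, a TNF receptor family member, rose from 2.41 and 3.26 CPM to 20.8, 9.09 and 22.6 CPM, with 2.63. With SRPIN340 the log2 fold change of TNFRSF9 was 1.08 to 1.51 over the settings, called in 3 alternatives but not in the main fit.

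Further genes known as NF-kB targets changed in part. Of 8 tested cytokines and ligands 3 were called higher and none lower, or 2 and 1 with scaling by total count only. Of 15 tested other targets 7 were called higher and 2 lower, or 6 and 2, beside 14.4% and 19.1% of all tested genes. TNF and SELE entered the test only through their acidosis libraries, so their calls add nothing to these counts. TNF, itself an activator of NF-kB, had 2 counts in control in all and 161 in acidosis, where it stood at 4.1, 4.59 and 3.61 CPM. The scaled ratio of these counts was 115, with a 95% interval of 31.3 to 958 for counting error only. IL32 rose from 1.55 and 2.11 CPM to 14.3, 11.1 and 13 CPM (log2 fold change 2.80), and TNFSF9 with a log2 fold change of 1.19 that was 0.61 and not called with scaling by total count only. SELE, the endothelial adhesion molecule E-selectin, had 2 counts in control and 60 in acidosis, a scaled ratio of 42.9 (95% interval 11.4 to 362). PTX3, a secreted pattern recognition protein, rose from 1.4 and 0.948 CPM to 26.2, 26 and 23.5 CPM (log2 fold change 4.42, standard error 0.22, edgeR adjusted p = 1.55e-07). With SRPIN340 the log2 fold change of PTX3 was 0.82 to 1.38 over the settings, called in 2 alternatives but not in the main fit. SDC4, a cell surface proteoglycan, rose from 17.4 and 18.1 CPM to 184, 181 and 207 CPM, with 3.43.

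**Figure D5:**
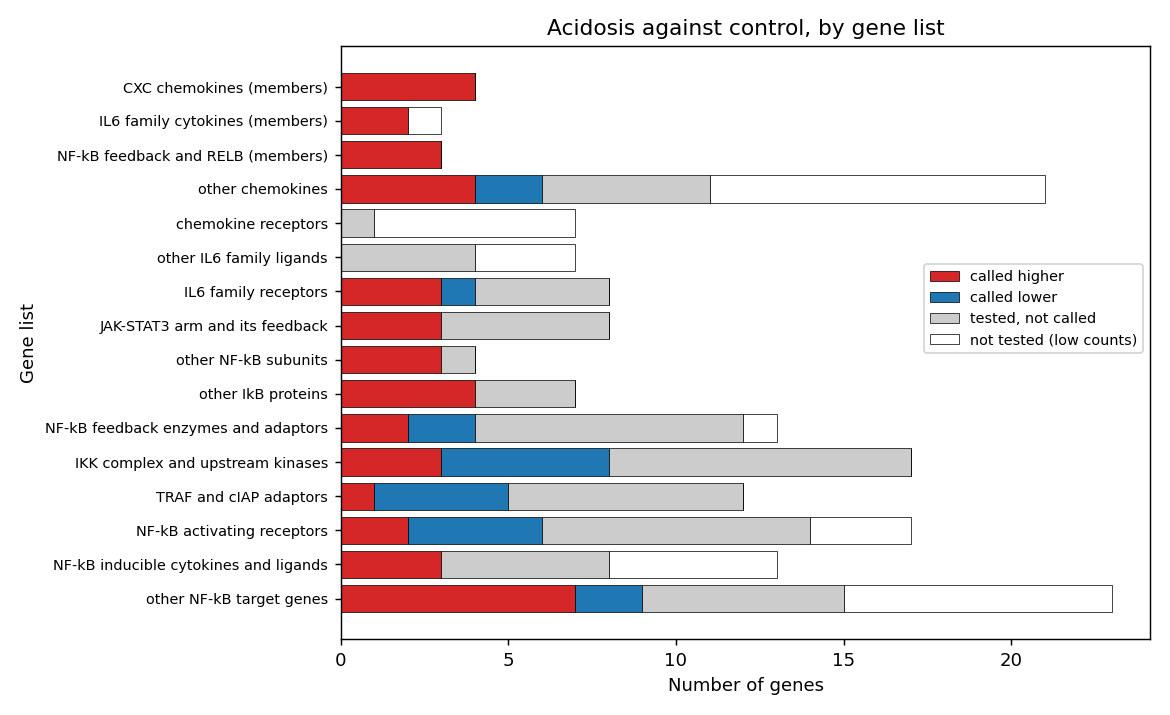
Number of genes (horizontal axis) in each list that were called higher, called lower, tested and not called, or not tested in acidosis against control. The lists of subunits, IkB proteins and target genes hold more higher than lower calls. Those of upstream kinases, adaptors and receptors hold more lower calls, 5 against 3, 4 against 1 and 4 against 2. Over all tested genes lower calls were also the more frequent, 19.1% against 14.4%. The bars include CXCL2, CCL7, CCL20, TNF and SELE, which entered the test only through acidosis libraries.

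The genes whose pattern over the 7 samples was most like that of CXCL8 were RHOB, CCN1, ANKRD1, CCN2 and H2AC19. Likeness was the Euclidean distance between log2 CPM values (pseudocount 0.1) centered on each gene's control mean, which was 0.574 for RHOB, 1.62 for CCN1, 1.81 for ANKRD1, 2.02 for CCN2 and 2.57 for H2AC19. RHOB, a small GTPase gene, was at 52 and 49.5 CPM in control, 111 and 79.4 CPM with SRPIN340 and 17007, 16682 and 18030 CPM in acidosis. H2AC19 had 0 counts in the control and SRPIN340 libraries and stood at 14.5, 63.2 and 17.5 CPM in acidosis. Its distance therefore rests on the pseudocount, and it entered the test only through acidosis libraries. It can share reads with near-identical histone genes, and its value is uncertain. With Pearson correlation in place of the distance 0 of these 5 genes remained, since the correlation ignores the size of a change and 2436 genes reached an r of 0.95 over these 7 samples, which fall into groups.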

How the data were processed

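Poly(A)-selected RNA of 7 HEK-293 samples was measured. The authors trimmed the reads (Trimmomatic 0.39, Trim Galore 0.6.6), quantified transcripts with Salmon 1.5.1 on the GENCODE GRCh38.p13 transcriptome and deposited estimated counts per gene from tximport, not normalized between samples, with 1 column per sample. The tximport option is not given in the sources used here. If the counts were scaled by length, the levels per kb change with it.

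The estimated counts were rounded. The test was the quasi-likelihood test of edgeR 4.0.16 (R 4.3.3) after filterByExpr and TMM scaling, with all 7 samples in a single fit and Benjamini-Hochberg adjustment over 14863 genes. A fold against 3 or fewer counts is given as a counting ratio or a lower bound. DESeq2 1.42.0, other scalings, filters, fold limits, sample sets, a replicate block and leaving out each replicate were alternatives. On simulated counts for 14863 genes, edgeR recovered 96% of 4-fold and 54% of 2-fold changes in acidosis against control, and 92% and 42% in SRPIN340 against control. A 2-fold change lies on the fold limit of a call, so its rates reflect that limit as well as the test. Of the unchanged genes, 6 and 13 were called. The simulation changed 50 genes per fold, left out the genes lowest on average, and did not copy the shift in make-up of the acidosis libraries. These rates need not hold for genes with few control counts. Replicates differed by more than sampling noise. Totals of 13615944 to 24110439 counts limit the precision of low genes.

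The 10 genes and the pathway lists were chosen with earlier results of these data known. Named from each list were up to 3 called genes with the largest change in acidosis, every SRPIN340 call, the receptors of the ligands, the NF-kB subunits and the 5 genes most like CXCL8. Columns were matched to samples by title. The value of 1 marker gene is not reported here.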

Additional observations from a re-analysis of the deposited data

How the results depend on the processing

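In acidosis against control 9 of the 10 genes were called under every alternative, except that the count was 8 at a log2 fold limit of 2 (without IL11) and 8 under the filter on a group mean of 6 CPM. Leaving out any replicate gave 9 to 9 calls, and 8 to 8 against SRPIN340, where the alternatives all gave 8. With SRPIN340 against control the single call, CXCL8, became 0 with that filter, with 2 groups in the fit, with the replicate block and at a log2 limit of 2, 2 by adjusted p alone, and 0 to 1 when a replicate was left out. Pathway genes called in acidosis went from 55 to 26 at a log2 limit of 2 and to 53 to 56 without a replicate. With SRPIN340 they went from 1 to 2 with DESeq2, 3 with no filter, 3 with 2 groups in the fit, 0 with the replicate block, 3 by adjusted p alone, 0 at a log2 limit of 2, and 0 to 3 without a replicate. All genes called in acidosis went from 4985 to 9917 by adjusted p alone, 1419 at a log2 limit of 2 and 4632 to 5010 without a replicate. With SRPIN340 they went from 48 to 27 with the replicate block, 72 with 2 groups in the fit, 342 by adjusted p alone, 14 at a log2 limit of 2, and 11 (without SRPIN340 replicate 1) to 66 (without acidosis replicate 2) without a replicate. Against SRPIN340 they went from 5148 to 10084, 1467 and 4795 to 5187. Apart from the fold limits and the sample sets, which change these counts by their construction, the cause was not tested. Without the TMM factors the acidosis calls were 815 higher and 5202 lower, in place of 2145 and 2840. Same-numbered samples did not deviate together (correlations of -0.115 to 0.063), so the numbers were not taken as pairs and the block is given here as an alternative only. No called value changed sign, while the pathway split turned from 35 higher and 20 lower to 21 and 30 without the TMM factors. Values that were not called did change sign, and not all of them lay near 0. Without the TMM factors the log2 fold changes in acidosis against control were -0.38 for IL11RA and -0.26 for NFKB1, against SRPIN340 -0.23 for LIFR and -0.06 for NFKB1, and with SRPIN340 against control 0.03 for LIF and 0.03 for IKBKE. CXCL3 with SRPIN340 was 0.30 with CXCL1 to CXCL3 summed. With a replicate left out, the SRPIN340 log2 fold changes were -0.85 to 0.48 for CXCL3, -0.11 to 0.09 for LIF, -0.01 to 0.33 for NFKBIA, -0.95 to 0.24 for SOCS1, -0.66 to 0.03 for PDLIM2, -0.09 to 0.11 for OTUD7B, -0.02 to 0.43 for IRAK3, -0.02 to 0.05 for RIPK1, -0.08 to 0.05 for IKBKE, -0.13 to 0.69 for TLR3, -0.19 to 0.08 for TNFSF9 and -2.77 to 3.33 for SELE. Low counts limit the values of CXCL2, IL6, CCL7, TNF and SELE.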
